A study of Mus musculus with 12 samples.

Results

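The comparison described here is that of mouse blood progenitors expressing RUNX1-ETO with and without GM-CSF for the last 24 h of culture. Its members were chosen by the sample titles: 3 arrays of RUNX1-ETO cells given GM-CSF (RE+GM) and 3 of RUNX1-ETO cells without it (RE), 6 of the 12 arrays of the study. RUNX1-ETO, the product of a recurrent chromosome translocation in acute myeloid leukaemia, joins the DNA-binding domain of RUNX1 to most of the corepressor-binding protein ETO. GM-CSF binds a receptor made of its own alpha chain (Csf2ra) and the beta chain (Csf2rb) shared with the receptors of IL-3 and IL-5. The beta chain carries JAK2, and the receptor signals through STAT5, RAS and ERK, and NF-kB. In marrow, GM-CSF is known for driving the growth of granulocyte and macrophage progenitors.

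All 12 arrays came from lineage-depleted marrow of C57BL/6J mice, kept in StemSpan medium that held 15% serum, IL-3 (10 ng/mL), SCF and FLT3 ligand (both 50 ng/mL). Retrovirus was added for 24 h: MigR1 alone in the Mig and Mig+GM groups, and MigR1 carrying HA-tagged RUNX1-ETO in the RE and RE+GM groups. Cells were then washed and left for a further 24 h without GM-CSF (Mig, RE) or with recombinant mouse GM-CSF at 10 ng/mL (Mig+GM, RE+GM), so that RUNX1-ETO had been present for 48 h in all RE and RE+GM cells. GFP-positive, lineage-negative, c-Kit-positive cells were sorted. The fusion was thus expressed from a viral promoter in short-term culture, and the labels do not say whether the other cytokines were present beside GM-CSF, how old the mice were, or whether replicates came from separate animals or cultures. The p-values below therefore measure how far these samples spread, and that spread may be technical. In sorted bulk cells, fewer cells of a type and less RNA per cell cannot be told apart.

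The Runx1t1 probe, which stands for the ETO part of the fusion, checks the labels. It was above the arrays' own background on 0 of the 6 Mig and Mig+GM arrays and on each of the 6 arrays with RUNX1-ETO. Its log2 signal was 7.79, 8.03 and 8.20 in RE, against 8.30, 8.77 and 8.33 in RE+GM (replicates 1, 2 and 3). The RE+GM arrays were all higher than the RE arrays, but the log2 difference of 0.46 ± 0.14 did not pass the test (adjusted p = 0.11). Of the progenitor markers, Cd34 (log2 mean 9.72 in RE and 9.46 in RE+GM), Gata2, Myb, Ptprc, Cd48, Meis1 and Hoxa9 were above background on all 6 arrays. Kit has no probe here. Among genes of mature cells that the sort should leave out, Cd3e, Cd79a, Itgam and Klrb1c were above background on 0 RE+GM arrays, whereas Adgre1, which encodes the macrophage protein F4/80, measured 11.18, 12.34 and 12.03 in RE, compared with 12.51, 12.92 and 12.19 in RE+GM. It was also above background on all Mig and Mig+GM arrays, and its difference between RE+GM and RE did not pass the test (0.69 ± 0.34, adjusted p = 0.303). Its part in the results below was not tested.

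The mean deposited signal was 318, 338 and 429 on the RE arrays and 459, 457 and 418 on the RE+GM arrays, and 48.3% to 56.5% of probes lay above background over all arrays. The RE+GM arrays resembled each other more than the RE arrays did. The median standard deviation across tested genes was 0.103 in RE+GM and 0.163 in RE on the log2 scale. RE replicate 3 correlated with the RE+GM arrays at 0.986, 0.987 and 0.991, and with RE replicates 1 and 2 at 0.971 and 0.986. It lay between its own group and the GM-CSF group on the second principal component, where RE replicate 1 stood farthest out at 33.9. Counts without RE replicate 3 are therefore given below.

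**Figure D1:**
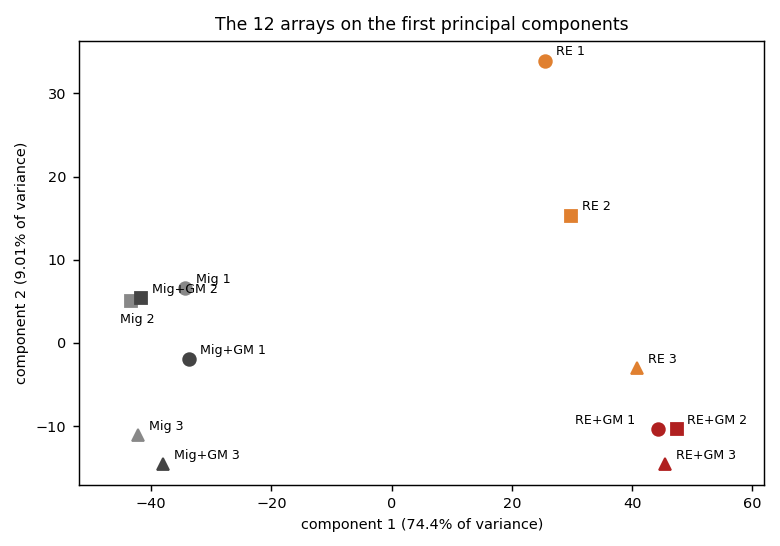
Scores of the 12 arrays on the first principal components of log2 signal over all tested genes (component 1, 74.4% of variance; component 2, 9.01%), coloured by group, with circles, squares and triangles for replicates 1, 2 and 3. Component 1 separates RE and RE+GM from Mig and Mig+GM, the 3 RE+GM arrays lie together, and RE replicate 3 lies nearer to them than RE replicate 1 does.

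More units passed the test upward than downward with GM-CSF in the RUNX1-ETO cells, while at an unadjusted p the order was the reverse. Among 11414 tested units (10519 named genes, each read by its brightest probe, and 895 probes with no gene name) 235 were higher in RE+GM, which is 2.06%, and 44 were lower, which is 0.385%, by limma's moderated test with a Benjamini-Hochberg adjusted p under 0.05, together 2.44%. At an unadjusted p under 0.05, 881 units were higher (7.72%) and 1247 lower (10.9%), and the unadjusted counts of gene lists below are to be read against these shares. Counts of called members are to be read against the 2.06% higher and 0.385% lower. At least a 2-fold change was seen for 98 of the 235 and for 1 of the 44. The median log2 change was 0.89 for the units called higher, -0.53 for those called lower and -0.04 for all units. Of the 235, 5 passed the filter on dim probes only through the RE+GM arrays. Each of the 279 had non-overlapping groups and the same sign in all 3 same-numbered pairs. Over all units, 23.5% had non-overlapping groups, 17.4% were higher in 3 of 3 pairs and 28.3% were lower in 3 of 3. The change was smaller in pair 3: the median difference of the units called higher was 1.00, 1.09 and 0.62 in pairs 1, 2 and 3.

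The count depended on how the spread was estimated. With the replicate number as a block, 715 units were called (410 higher, 3.59%, and 305 lower, 2.67%, together 6.26%), which included all 279. Without RE replicate 3 there were 906 calls (496 higher and 410 lower), array weights gave 592 higher and 559 lower, and leaving out any other RE or RE+GM array left 113 to 164. With arrays scaled to a common median in place of quantiles, 202 were called, 197 higher and only 5 lower, so the falls depended more on the scaling than the rises did. Of the 94 genes that are both named here and called, 37 passed the test under each of the 18 alternatives run, and all 37 were rises.

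Components of the GM-CSF receptor itself did not pass the test. Of 14 tested genes of the receptor and its first signalling steps, 0 were called in limma's test, with 0 higher and 4 lower at an unadjusted p under 0.05, and their median log2 change was -0.15, against -0.04 for all units. Under median scaling these medians were both 0.05. Csf2ra, the alpha chain, measured 8.36, 8.14 and 7.87 in RE, against 8.25, 8.34 and 7.85 in RE+GM (log2 difference 0.02 ± 0.31, adjusted p = 0.976). Csf2rb measured 9.76, 9.37 and 9.14 in RE, compared with 9.33, 9.43 and 9.20 in RE+GM (-0.10 ± 0.22, adjusted p = 0.833). The groups overlapped for both chains. The closely related beta chain of the mouse IL-3 receptor, Csf2rb2 (-0.20 ± 0.32, adjusted p = 0.778), and Il3ra, the IL-3 receptor alpha chain (0.20 ± 0.13, adjusted p = 0.428), did not pass either; near-identical sequence between Csf2rb and Csf2rb2 may let a probe read both.

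Known targets of STAT5 rose in part. Of 22 tested, 5 were called higher (22.7%, against 2.06% of all units) and 0 lower. The other 17 did not pass, and the list's median change was 0.27. Il2ra, the alpha chain of the IL-2 receptor, measured 6.20, 6.48 and 6.69 in RE, against 7.65, 7.44 and 7.33 in RE+GM (1.02 ± 0.14, adjusted p = 0.00288). The groups did not overlap, and every RE+GM array stood above every RE array. Pim1, a survival kinase, measured 7.63, 7.93 and 8.24 against 8.86, 8.78 and 8.47 (0.77 ± 0.16, adjusted p = 0.0243), although its other probe changed by 0.10 and was not called. Id1, an inhibitor of basic helix-loop-helix factors, rose by 0.78 ± 0.16 (adjusted p = 0.029).

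The feedback inhibitors of this pathway behaved unequally. Socs2 measured 10.87, 11.33 and 12.12 in RE, compared with 12.66, 12.57 and 12.33 in RE+GM (1.08 ± 0.25, adjusted p = 0.0499). RE replicate 3 was the closest RE array to the RE+GM group, and the call sat at the threshold. Cish measured 10.75, 10.73 and 11.13 against 11.66, 11.59 and 11.45 (0.70 ± 0.17) and missed the threshold at an adjusted p of 0.0547, but passed with the replicate block at 0.0188. Socs1 (0.22 ± 0.16, adjusted p = 0.499) and Socs3 (0.14 ± 0.24, adjusted p = 0.784) did not pass. Bcl2l1, which encodes the survival protein BCL-XL, measured 6.75, 8.07 and 8.69 in RE, against 9.03, 8.80 and 8.78 in RE+GM, with RE replicate 1 far below the rest (1.03 ± 0.35, adjusted p = 0.15). Of the STAT5 list, 7 genes were higher and 1 was lower with the replicate block, 7 were higher without RE replicate 3, and 1 to 3 were higher without any other single array. Median scaling left 2.

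Early-response genes of ERK signalling and the MYC programme gave 1 call each. Of 23 tested ERK genes, 1 was called higher (4.35%, against 2.06% of all units): Ier3, an early stress-response gene, measured 10.19, 10.09 and 10.91 in RE, compared with 11.94, 12.04 and 11.81 in RE+GM (1.53 ± 0.26, adjusted p = 0.0103). The groups were clearly apart, but the call was lost without RE replicate 2 or RE+GM replicate 2. With the replicate block, or without RE replicate 3, 3 of the 23 were called, among them Egr2, a zinc-finger factor (0.80 ± 0.19, adjusted p = 0.0562 without and 0.0271 with the block), which is named after its values were seen. Of 26 genes of MYC and nucleolar ribosome biogenesis, 1 was called higher (3.85%), Odc1, the first enzyme of polyamine synthesis (0.76 ± 0.15, adjusted p = 0.0243), whose call was lost without any single RE or RE+GM array other than RE replicate 3. At an unadjusted p under 0.05 by limma, 11 of the 26 were lower and 1 was higher, against 10.9% and 7.72% of all units. The list's median was -0.30, or -0.04 under median scaling. With the block 4 members were lower and are named for that reason: Mybbp1a, Pa2g4, Polr1a and Nop2, with changes of -0.69 to -0.42. Myc itself measured 6.80, 7.28 and 7.29 in RE, against 6.89, 7.31 and 7.17 in RE+GM (0.00 ± 0.19, adjusted p = 0.997).

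The largest rises were those of Ppbp and Grp. Ppbp, the precursor of the platelet chemokine CXCL7, measured 6.56, 6.88 and 7.29 in RE, compared with 11.22, 12.26 and 10.18 in RE+GM. The lowest RE+GM array was far above the highest RE array, and the rise was 4.31 ± 0.46 on the log2 scale (19.8-fold, adjusted p = 0.000809). Its other probe rose by 3.68 (adjusted p = 0.000725). Grp, the neuropeptide gastrin-releasing peptide, measured 6.07, 6.36 and 6.99 in RE, above background on 2 of the 3 arrays, and 10.16, 11.07 and 11.04 in RE+GM (4.28 ± 0.25, 19.4-fold, adjusted p = 7.73e-06). Every RE+GM array was far above every RE array.

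Neurotensin and a carbonic anhydrase followed. Nts, the gut and brain peptide neurotensin, measured 6.65, 7.2 and 9.07 in RE, against 10.98, 11.62 and 11.60 in RE+GM (3.76 ± 0.46, adjusted p = 0.00181). RE replicate 3 was well above the other RE arrays without reaching the RE+GM group, and a second Nts probe changed by 0.33 and was not called (adjusted p = 0.162). Car4, a carbonic anhydrase anchored to the cell surface, measured 7.37, 8.08 and 7.86 against 11.55, 11.77 and 11.04 (3.69 ± 0.20, 12.9-fold, adjusted p = 7.73e-06). All RE arrays were low and close together.

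Cstdc4 and Csta2, stefin A-type inhibitors of cysteine cathepsins, rose by 3.50 ± 0.59 and 3.13 ± 0.51 (adjusted p = 0.0093 and 0.00752). Cstdc4 measured 7.46, 7.17 and 6.97 in RE, compared with 10.31, 11.35 and 10.44 in RE+GM. Both lie on chromosome 16 near Stfa1, whose change of 0.84 ± 0.54 did not pass (adjusted p = 0.43). The stefin copies are close in sequence, so a probe may read more than 1 of them, and Cstdc4 was no longer called without RE+GM replicate 2. Irx3, a homeobox transcription factor, measured 6.34, 6.80 and 8.31 in RE, against 9.94, 10.67 and 10.01 in RE+GM (3.05 ± 0.38, adjusted p = 0.00194). Gja5, the gap junction protein connexin 40, and Sema7a, a membrane-anchored semaphorin, were singled out after their values were seen. They rose by 2.71 ± 0.23 and 2.37 ± 0.20 (adjusted p = 0.000172 for both). Other Gja5 probes changed by 1.99, which was called, and by 0.38, which was not. Another Sema7a probe rose by 0.86 and was called. Ccl17, a ligand of the chemokine receptor CCR4, was uniform in RE+GM at 10.27, 10.38 and 10.30, against 7.34, 6.92 and 7.66 in RE (3.01 ± 0.36, adjusted p = 0.00181).

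**Figure D2:**
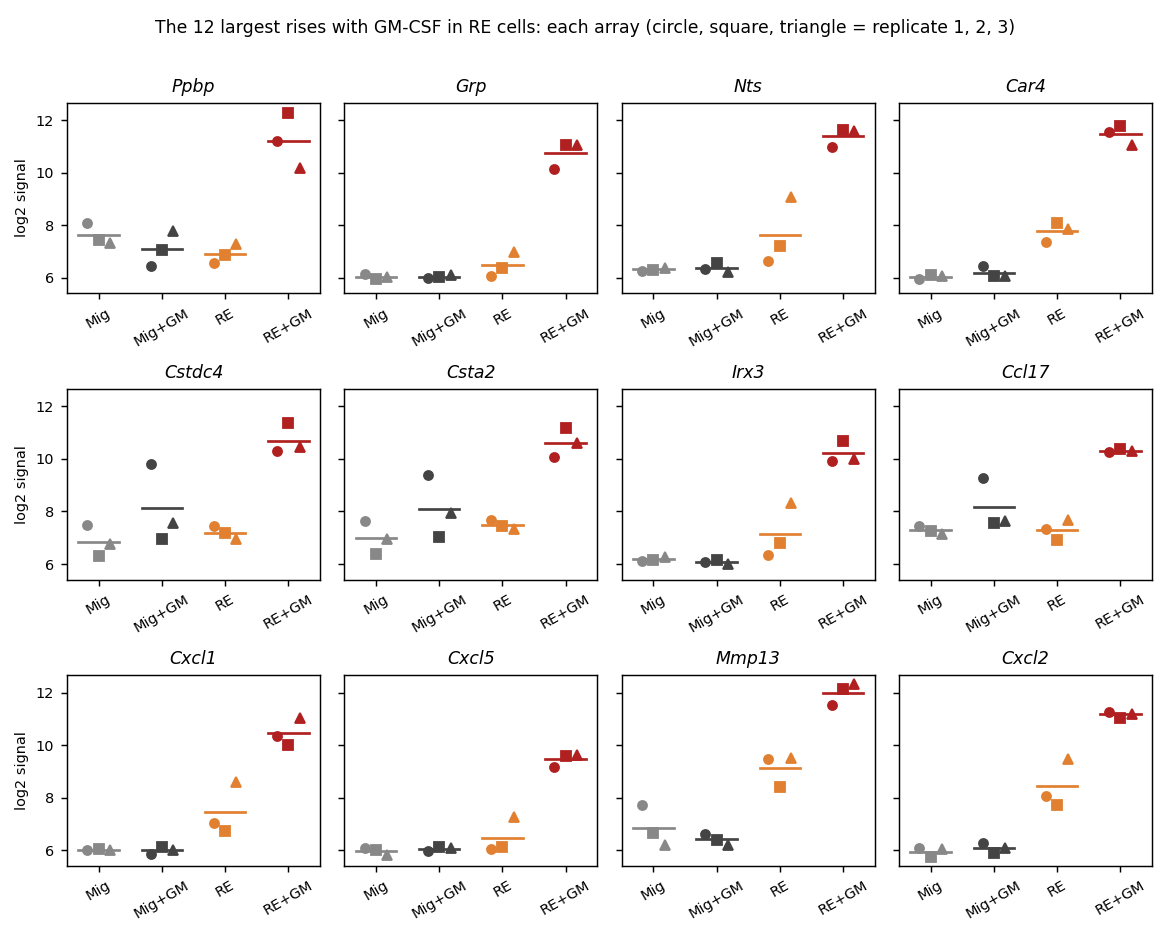
Log2 signal on every array for the 12 genes with the largest called rises in RE+GM over RE, with a panel for each gene, horizontal lines for group means and circles, squares and triangles for replicates 1, 2 and 3. In each panel all RE+GM arrays lie above all RE arrays, as for Car4 (7.37 to 8.08 in RE and 11.04 to 11.77 in RE+GM), and RE replicate 3 is the highest RE array for Nts, Irx3, Cxcl1 and Cxcl2.

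Chemokines, the small secreted proteins that attract leukocytes, were the list with the highest share of calls. Of 27 listed, 23 were tested, 9 were higher (39.1%, against 2.06% of all units), 0 were lower by limma's test (1 at an unadjusted p under 0.05), and the median change was 0.88. The list's summed linear signal was 20200 to 34000 in RE and 50500 to 65100 in RE+GM. The 9 were Cxcl5, Ppbp, Ccl17, Cxcl2, Cxcl1, Cxcl3, Ccl4, Ccl3 and Ccl2; the single genes Cxcl3, Ccl4 and Ccl2, and the uncalled neighbours below, were picked out after their values were seen. Without any single RE or RE+GM array, 7 to 9 of the 23 were called. Cxcl3 passed the filter on dim probes only through the RE+GM arrays, and without it 8 of 22 were higher.

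Ligands of the neutrophil receptor CXCR2 rose together. Cxcl1 measured 7.05, 6.74 and 8.60 in RE, compared with 10.33, 10.02 and 11.04 in RE+GM (3.00 ± 0.39, 8.02-fold, adjusted p = 0.00212). Cxcl2 measured 8.07, 7.73 and 9.49 against 11.27, 11.05 and 11.19 (2.74 ± 0.34, adjusted p = 0.00181). RE replicate 3 was the highest RE array for both, yet it lay below every RE+GM array. Cxcl5 measured 6.03, 6.14 and 7.28 against 9.16, 9.59 and 9.63 (2.98 ± 0.26, adjusted p = 0.000231). Cxcl3 was not above background on any RE array and measured 6.76, 7.22 and 6.91 in RE+GM, at least 1.58-fold higher. Since only RE+GM arrays brought it past the filter, its test is not counted as support.

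These CXC genes are neighbours on chromosome 5, in the order Cxcl5, Ppbp, Pf4, Cxcl3, Cxcl15, Cxcl1 and Cxcl2 among protein-coding genes in the RefSeq table. Of the 7, 5 were called higher, Cxcl3 among them, Cxcl15 did not pass the filter on dim probes, and Pf4, which encodes platelet factor 4, measured 11.56, 10.71 and 11.05 in RE, against 12.09, 12.82 and 12.02 in RE+GM. That difference of 1.2 ± 0.31 did not pass (adjusted p = 0.0728, and 0.0445 with the replicate block). On chromosome 11, Ccl3 and Ccl4 rose by 1.29 ± 0.23 and 1.81 ± 0.26 (adjusted p = 0.0119 and 0.00403). Their neighbours Ccl5, Ccl9 and Ccl6 were not called, with changes of -1.06, -0.32 and -0.08. Ccl5 was lower with the block (adjusted p = 0.0438). RE measured 12.80, 10.85 and 11.63 and RE+GM 10.87, 10.33 and 10.90. In the other group on that chromosome, Ccl2, a monocyte attractant, rose by 1.33 ± 0.28 (adjusted p = 0.0296), Ccl7, Ccl12 and Ccl8 changed by 0.88, 1.45 and 0.62 without passing, and Ccl11 changed by 0.01. Ccl12 passed with the block (adjusted p = 0.0601 without and 0.00461 with it), and its other probe was called (1.56, adjusted p = 0.0361).

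**Figure D3:**
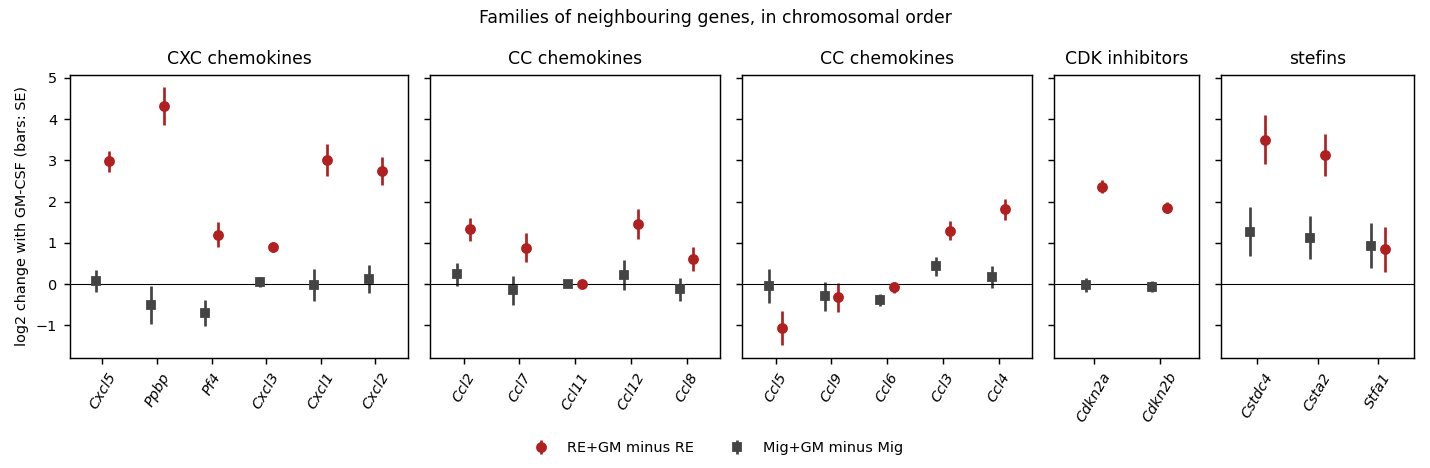
Log2 change with GM-CSF (bars, standard error of the model, 3 arrays a group) for families of neighbouring genes in chromosomal order, in RE cells (red circles) and Mig cells (grey squares). Cxcl15 is not drawn because it did not pass the filter. Ppbp, Cxcl5, Cxcl1 and Cxcl2 lie between 2.74 and 4.31 in RE cells and between -0.51 and 0.13 in Mig cells, while Ccl11, Ccl9 and Ccl6 lie near 0 or below it in both.

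The promoters of the CXC genes in RefSeq's table are shown to let the neighbours be compared, with Nts and Cstdc4 as leading rises that hold a searched motif; Pf4 holds none. Each line gives the 250 bases before the start of the gene on its own strand, in GRCm38.p6. Capitals mark matches, on either strand, to a STAT motif (TTCNNNGAA), an AP-1 motif (TGANTCA), an E-box (CACGTG) or an NF-kB motif (GGG, any 2 bases, then TTTCC); the last was added after the data had been seen. No match of one motif overlaps a match of another here.
Ppbp (chr5:90768268-90768517, + strand): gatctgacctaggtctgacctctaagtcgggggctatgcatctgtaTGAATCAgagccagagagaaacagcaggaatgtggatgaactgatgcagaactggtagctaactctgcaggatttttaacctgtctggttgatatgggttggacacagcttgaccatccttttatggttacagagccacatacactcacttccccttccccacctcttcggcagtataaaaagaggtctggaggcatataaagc
Pf4 (chr5:90772185-90772434, + strand): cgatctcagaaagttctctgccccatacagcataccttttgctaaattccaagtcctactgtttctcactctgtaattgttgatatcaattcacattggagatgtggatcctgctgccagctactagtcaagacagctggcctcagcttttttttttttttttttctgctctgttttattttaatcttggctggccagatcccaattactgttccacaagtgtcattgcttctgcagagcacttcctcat
Cxcl3 (chr5:90785851-90786100, + strand): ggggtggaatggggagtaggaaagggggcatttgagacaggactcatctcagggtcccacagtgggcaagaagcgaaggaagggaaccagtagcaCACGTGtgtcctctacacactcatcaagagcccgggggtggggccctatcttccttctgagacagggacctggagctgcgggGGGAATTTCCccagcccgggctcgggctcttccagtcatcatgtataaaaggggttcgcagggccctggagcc
Cxcl1 (chr5:90890995-90891244, + strand): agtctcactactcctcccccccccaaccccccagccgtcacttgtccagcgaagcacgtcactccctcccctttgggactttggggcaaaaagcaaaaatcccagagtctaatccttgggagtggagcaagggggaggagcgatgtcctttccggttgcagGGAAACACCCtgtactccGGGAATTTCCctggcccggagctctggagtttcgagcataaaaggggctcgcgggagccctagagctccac
Cxcl2 (chr5:90903649-90903898, + strand): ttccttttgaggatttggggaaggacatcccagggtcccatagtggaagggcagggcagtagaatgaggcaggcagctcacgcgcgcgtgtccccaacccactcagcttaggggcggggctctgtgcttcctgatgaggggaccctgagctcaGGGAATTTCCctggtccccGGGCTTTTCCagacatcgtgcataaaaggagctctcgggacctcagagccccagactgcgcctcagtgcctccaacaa
Nts (chr10:102490419-102490668, - strand): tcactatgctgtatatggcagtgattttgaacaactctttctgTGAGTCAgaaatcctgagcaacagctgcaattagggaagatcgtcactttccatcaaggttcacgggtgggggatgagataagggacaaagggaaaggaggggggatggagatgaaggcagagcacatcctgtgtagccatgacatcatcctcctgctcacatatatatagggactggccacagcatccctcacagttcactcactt
Cstdc4 (chr16:36183962-36184211, + strand): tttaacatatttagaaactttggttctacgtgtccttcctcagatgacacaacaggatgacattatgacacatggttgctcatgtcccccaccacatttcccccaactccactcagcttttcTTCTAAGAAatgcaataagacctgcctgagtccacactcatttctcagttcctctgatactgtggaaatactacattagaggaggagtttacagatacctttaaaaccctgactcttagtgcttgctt

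Read with the values above, Cxcl1, Cxcl2 and Cxcl3 share the run GGGAATTTCC at 71, 97 and 73 bases before their starts. Cxcl1 and Cxcl2 hold a further match to the same motif, at 89 and 78 bases. The AP-1 match begins 204 bases before the start of Ppbp and 207 before that of Nts, and the STAT match of Cstdc4 begins 128 bases before its start. Of all 27025 promoters of 300 bases in the table, 8.47% held the STAT motif, 7.93% the AP-1 motif, 7.24% the E-box and 1.62% the NF-kB motif. Among the 8587 with a tested gene the shares were 7.17%, 5.92%, 9.77% and 1.78%. Among the 170 with a gene called higher they were 7.06%, 11.8%, 7.65% and 4.12%, the last being 7 promoters. Cxcl1, Cxcl2 and Cxcl3, printed above, are among these 7. As the NF-kB motif was added after the data had been seen, its share is not a test. These matches describe the letters only. No match was found in the promoters of Car4, Csta2, Pf4 and Cdkn2b, nor in the first listed of 2 promoters each of Pim1 and Cdkn2a.

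Inflammatory cytokines rose in smaller number. Of 31 tested genes of cytokines and NF-kB signalling, 4 were higher by limma's test (12.9%, against 2.06% of all units). By that test, or at an unadjusted p under 0.05, 0 were lower, and the median change was 0.13. Il1a, which encodes interleukin-1 alpha, measured 5.96, 6.38 and 7.57 in RE, compared with 8.59, 8.98 and 9.63 in RE+GM (2.43 ± 0.34, adjusted p = 0.00354). Tnf measured 7.16, 6.48 and 7.37 against 8.74, 8.20 and 8.23 (1.39 ± 0.22, adjusted p = 0.00697). The groups did not overlap for either cytokine. Lta, lymphotoxin alpha, rose by 0.96 ± 0.14 (adjusted p = 0.00355), and Nfkbiz, a nuclear regulator of NF-kB, by 1.18 ± 0.16 (adjusted p = 0.00264). With the replicate block 9 were called higher, among them Il1b (1.70 ± 0.42, adjusted p = 0.0593 without and 0.0167 with the block), Il6 (1.28 ± 0.41, 0.129 and 0.00746) and Tnfaip3, a feedback inhibitor of NF-kB (0.66 ± 0.21, 0.127 and 0.0141). These 3 were named after their values were seen. Without RE replicate 3 the count was 7, and it was 4 without any other single array.

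Growth factors and ligands of the TNF family were also among the rises; the genes named in this paragraph, and Cdkn2b in the next, were chosen after their values were seen. Tnfrsf11b, the decoy receptor osteoprotegerin, measured 6.28, 6.24 and 6.56 in RE, against 8.87, 8.61 and 7.94 in RE+GM (2.11 ± 0.19, adjusted p = 0.000286). Tnfsf4, the OX40 ligand, measured 6.67, 6.59 and 6.67 against 8.58, 8.65 and 8.36 (1.88 ± 0.19, adjusted p = 0.000647). The RE arrays were almost level for this gene. Fst, the activin-binding protein follistatin, rose by 2.11 ± 0.39, Edn1, the peptide endothelin-1, by 1.87 ± 0.42, Tslp, a cytokine of the IL-7 family, by 1.46 ± 0.26, Igf1 by 1.29 ± 0.21, Bmp2 by 1.2 ± 0.15 and Hbegf, an EGF receptor ligand, by 1.12 ± 0.11 (adjusted p = 0.0152, 0.0394, 0.0131, 0.0085, 0.00198 and 0.000389). Smaller rises were those of Pgf, placental growth factor (0.92 ± 0.11), and Pdgfb (0.76 ± 0.14). Pdcd1lg2, the PD-1 ligand PD-L2, measured 7.71, 7.62 and 8.55 in RE, compared with 9.71, 9.70 and 9.64 in RE+GM (1.72 ± 0.21, adjusted p = 0.00181). Il1rap, the shared chain of the IL-1 and IL-33 receptors, rose by 1.07 ± 0.20 (adjusted p = 0.0157). Its other probes at 0.50, 0.83 and 0.95 were called, and those at 0.24 and 0.50 were not.

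Both genes of the INK4 locus rose. Cdkn2a, which encodes the cell cycle inhibitor p16INK4a and the p53 activator p19ARF, was above background on 1 RE array. It measured 6.04, 6.30 and 6.43 in RE, against 8.30, 8.90 and 8.66 in RE+GM (2.36 ± 0.16, 5.14-fold, adjusted p = 2.3e-05), and its other probe rose by 0.83 (adjusted p = 0.000356). Cdkn2b, the neighbouring gene of p15INK4b on chromosome 4, measured 6.94, 7 and 7.36 against 8.87, 9.01 and 8.96 (1.85 ± 0.13, 3.6-fold, adjusted p = 2.3e-05). The groups were far apart for both, and both passed under each of the 18 alternatives. Cdkn1a, the inhibitor p21 and a target of p53 and STAT5, measured 10.40, 10.68 and 11.17 in RE, compared with 11.52, 11.42 and 11.59 in RE+GM (0.76 ± 0.17, adjusted p = 0.0445). Neither of its other probes was called, and the call was lost under 12 of the 18 alternatives, median scaling among them.

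Of 26 tested genes of the p53 list, 9 were higher and 0 lower at an unadjusted p under 0.05 by limma, with a median change of 0.16. With the adjusted p, 5 were higher (19.2%, against 2.06% of all units) and 0 lower. Beside Cdkn2a and Cdkn1a these were Plk3, a stress kinase (0.79 ± 0.13, adjusted p = 0.00845), the death receptor Fas (0.67 ± 0.13, adjusted p = 0.0202) and Gadd45a, a growth arrest gene (1.08 ± 0.23, adjusted p = 0.0332). Another Fas probe changed by 0.57 and was not called, while another Gadd45a probe (1.03) was. Of the 5, Cdkn2a encodes an activator of p53, so its rise is not read as that of a p53 target. Other genes of the list did not pass, such as Mdm2 (0.26), Ccng1 (0.20) and Bbc3 (-0.07). Without single arrays other than RE replicate 3 the count was 2 to 4, and it was 6 without that array.

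Genes of matrix breakdown and adhesion rose in part. Of 32 tested integrin, adhesion and protease genes, 7 were higher by limma's test (21.9%, against 2.06% of all units). By that test 0 were lower (2 at an unadjusted p under 0.05), and the median change was 0.13. The count of genes called higher was 8 without RE replicate 3 and 6 without RE+GM replicate 3. It was 4 without any other single RE or RE+GM array. Mmp13, the collagenase 3, measured 9.49, 8.39 and 9.52 in RE, against 11.54, 12.13 and 12.34 in RE+GM (2.87 ± 0.39, 7.32-fold, adjusted p = 0.00258). Plaur, the receptor of urokinase, measured 7.80, 7.93 and 8.71 against 10.33, 10.45 and 10.34 (2.22 ± 0.34, adjusted p = 0.0059). The groups were separate for both. Urokinase itself, Plau, rose by 1.51 ± 0.21 (adjusted p = 0.00284), and Serpinb2, an inhibitor of urokinase that was named after its values were seen, by 1.10 ± 0.21 (adjusted p = 0.0216). Timp1, a metalloproteinase inhibitor, rose by 0.75 ± 0.12 (adjusted p = 0.00697). The fibronectin and vitronectin receptor chains Itgb1 (0.50 ± 0.10) and Itgav (0.51 ± 0.10, picked out after its values were seen) shared an adjusted p of 0.0243. Their calls were lost under 10 and 9 of the 18 alternatives, median scaling among them for both. Another Itgb1 probe changed by 0.36 and was not called. Mmp9 (0.28 ± 0.09, adjusted p = 0.133) did not pass.

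Several of these genes are also on the list of fibroblast and stromal genes, of which 22 of 41 were tested. Of the 22, 6 were higher (27.3%, against 2.06% of all units), with a median of 0.24. The 6 were Cav1, the caveola protein caveolin-1, Mmp13, Acta2, smooth muscle actin, Timp1, Col4a1, a basement membrane collagen chain, and Sparc, a matrix glycoprotein, of which Col4a1 and Sparc were singled out after their values were seen. Cav1 measured 7.60, 6.54 and 7.19 in RE, compared with 9.16, 9.38 and 9.36 in RE+GM (2.19 ± 0.21, adjusted p = 0.000389). Acta2 rose by 1.22 ± 0.18 (adjusted p = 0.00426), although 2 of its 3 other probes were not called. The list's summed signal was 8090 to 10800 in RE and 14600 to 17100 in RE+GM. Of the stroma markers, Col1a1, Col3a1, Dcn, Lum and Pdgfra were above background on 0 RE+GM arrays. Pdgfrb was above background on 2 RE+GM arrays and 1 RE array, and changed by -0.03 (adjusted p = 0.945 by limma). Col1a2, above background on 3 arrays of each group, changed by 0.46 ± 0.12 (adjusted p = 0.0813, and 0.0341 with the replicate block). Without RE replicate 3, 9 of the 22 were called, and 4 or 5 without any other single array.

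Genes that mark maturing blood cells showed few calls. Of 24 tested monocyte and macrophage markers, 1 was higher (4.17%, against 2.06% of all units). This was Apoe, a lipid carrier, at 6.22, 6.44 and 6.82 in RE, against 7.54, 7.97 and 7.96 in RE+GM (1.33 ± 0.17, adjusted p = 0.00194). The summed signal of that list was 39900 to 53800 in RE and 35000 to 45200 in RE+GM, and Cd14 changed by -0.93 ± 0.37 (adjusted p = 0.205, and 0.0454 with the replicate block). Of 26 dendritic cell and MHC class II genes, 2 were higher (7.69%). These were Ccl17 and Clec10a, a macrophage and dendritic cell lectin (1.35 ± 0.27, adjusted p = 0.0245). The class II genes H2-Aa (0.02), H2-Ab1 (-0.32) and Cd74 (-0.09) did not pass. Of 12 genes of lipid uptake and alveolar-type macrophages, Car4 was higher and Angptl4 lower, and Pparg changed by -0.02; 9 more are on the array but did not pass the filter.

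Calls on the granulocyte and other lineage lists were as follows. Of 27 neutrophil genes 0 were called by limma's test (2 higher and 3 lower at an unadjusted p under 0.05), with a median of -0.12. Csf3r, the G-CSF receptor, measured 8.60, 8.93 and 7.68 in RE, compared with 7.73, 7.69 and 7.07 in RE+GM (-0.91 ± 0.34, adjusted p = 0.192, and 0.042 with the block). Of 20 myeloid transcription factors 0 were called (3 higher at an unadjusted p under 0.05), with a median of -0.01. Of 25 mast cell and basophil genes 3 were higher (12%, against 2.06% of all units), Ier3, Ccl3 and the cytokine gene Il13 (0.68 ± 0.15, adjusted p = 0.0394), and 0 without RE replicate 2 or RE+GM replicate 2. The granule gene Cpa3 changed by -0.22 ± 0.18 (adjusted p = 0.541), and Mcpt8 and Prss34 by -0.92 ± 0.38 and -1.21 ± 0.46, which passed with the block (adjusted p = 0.0465 and 0.0472). Counts of 0 were also found for 7 eosinophil genes (0 at an unadjusted p under 0.05), 26 erythroid genes (4 lower) and 14 lymphoid genes (2 higher and 1 lower). Of 17 megakaryocyte and platelet genes, 2 were higher (11.8%, against 2.06% of all units). These were Ppbp and Thbs1, the adhesive protein thrombospondin-1 (1.01 ± 0.13, adjusted p = 0.00198). Adgre1, Cd14, Cpa3, Mcpt8 and Prss34 are list or marker genes singled out after their values were seen.

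Receptors for lipid mediators included a further large rise. Ltb4r1, the high-affinity receptor of leukotriene B4, measured 9.54, 10.08 and 10.84 in RE, against 12.09, 12.41 and 12.57 in RE+GM (2.2 ± 0.28, adjusted p = 0.00198). It was the only call among 11 leukotriene and prostaglandin genes. Alox5ap, singled out after its values were seen, which presents arachidonate to 5-lipoxygenase, changed in the other direction by -0.71 ± 0.23 and passed with the replicate block (adjusted p = 0.131 without and 0.0106 with it) and without RE replicate 3. Egln3, an oxygen-sensing prolyl hydroxylase, rose by 1.19 ± 0.21 (adjusted p = 0.0137). It was the only call among 27 glycolysis and hypoxia genes (3.7%, against 2.06% of all units).

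Further counts moved without RE replicate 3, as did those of all 11414 units, from 235 to 496 higher and from 44 to 410 lower. The list counts here are to be read against those totals. There were then 1 higher and 3 lower of 27 neutrophil genes, 2 lower of 40 interferon genes and 2 lower of 26 erythroid genes. Of 23 mitosis genes and 14 lymphoid genes, 1 each was lower. The MYC list had 1 higher and 2 lower of 26, the ATF4 list 2 and 1 of 28 and the lipid uptake list 2 and 1 of 12. The glycolysis list had 2 and 1 of 27, and the endothelial list 3 and 1 of 20 (1 and 1 with all arrays). The endothelial gene higher with all arrays, Cdh5, passed the filter on dim probes only through the RE+GM arrays. Without it 0 of 19 were higher with all arrays, so its test is not counted as support. The stem cell list had 2 higher and 2 lower of 32, and the cholesterol and BCL2 lists 1 higher each, of 18 and 17.

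**Figure D4:**
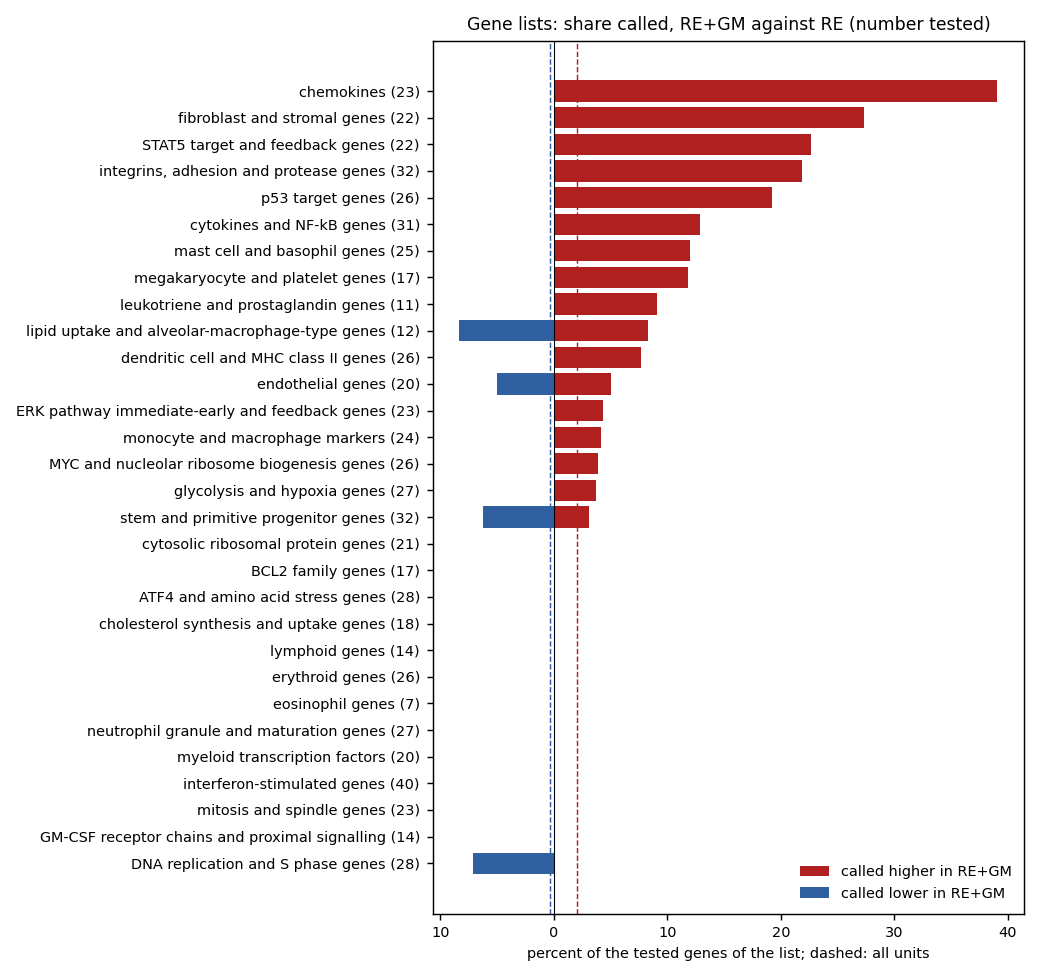
Percent of the tested members of each gene list that were called higher (red, to the right) or lower (blue, to the left) in RE+GM against RE, with the number tested in parentheses and dashed lines at the share of all units (2.06% higher, 0.385% lower). Chemokines stand at 39.1%, and 12 lists show no call. The endothelial gene called higher, and Cxcl3 among the chemokines, passed the filter on dim probes only through the RE+GM arrays.

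The falls were small beside the rises. Adamtsl4, a secreted ADAMTS-like protein, measured 9.46, 9.65 and 8.59 in RE, compared with 8.19, 8.06 and 7.41 in RE+GM, and fell by 1.35 ± 0.25 on the log2 scale (adjusted p = 0.0153). Eng, the TGF-beta co-receptor endoglin, measured 10.34, 10.12 and 9.67 against 9.08, 9.24 and 9.13 and fell by 0.89 ± 0.17 (adjusted p = 0.0202). No RE+GM array reached an RE array in either gene, and RE replicate 3 was the lowest RE array in both. The other named falls ran from -0.84 to -0.65. They were Slc4a8, a bicarbonate transporter, Angptl4, an inhibitor of lipoprotein lipase, Nisch, Cd1d1, a presenter of lipid antigens, Art5 and Zfp35. Mc5r, Pold1, Shisa2 and Tgtp1, an interferon-induced GTPase, completed them. Another Slc4a8 probe changed by -0.56 and was not called. None of the 14 named falls, Lmo2 and Mcm5 included, passed under all 18 alternatives, and median scaling ended the calls of Eng, Nisch, Cd1d1, Zfp35, Mc5r, Pold1, Shisa2, Tgtp1, Lmo2 and Mcm5.

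The falls included 2 stem cell genes and 2 replication genes. Of 32 tested stem and primitive progenitor genes 2 were lower, Eng and Lmo2, a transcriptional adaptor of early blood cells, which measured 11.99, 11.90 and 11.74 in RE, against 11.41, 11.22 and 11.25 in RE+GM (-0.58 ± 0.09, adjusted p = 0.00621). Etv6, an ETS-family repressor, was higher (0.35 ± 0.08, adjusted p = 0.0406), and Cd34 did not pass (-0.26 ± 0.11, adjusted p = 0.256). The stem cell calls were 6.25% lower and 3.12% higher, against 0.385% and 2.06% of all units. At an unadjusted p under 0.05 by limma, 4 of the 32 were lower and 3 higher. The stem cell list's median was -0.03, against -0.04 for all units, and under median scaling it had 0 calls. Of 28 DNA replication genes 2 were lower (7.14%, against 0.385% of all units) and 0 higher, with a median of -0.28 and 15 lower and 0 higher at an unadjusted p under 0.05. Pold1, the catalytic subunit of polymerase delta, measured 10.44, 10.28 and 9.93 in RE, compared with 9.58, 9.59 and 9.54 in RE+GM (-0.65 ± 0.14, adjusted p = 0.0311). Mcm5, a subunit of the replicative helicase, measured 11.10, 10.89 and 10.76 against 10.49, 10.30 and 10.34 (-0.54 ± 0.12, adjusted p = 0.0323). With the replicate block, or without RE replicate 3, 5 of the 28 were lower; under median scaling, or without any other single array, 0 or 1 were.

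Genes of mitosis gave no call: 0 of 23 passed limma's test, 10 were lower and 0 higher at an unadjusted p under 0.05, and the median was -0.24. Of 40 interferon-stimulated genes 0 passed (9 lower at an unadjusted p under 0.05), with a median of -0.15. Under median scaling the medians of the mitosis, replication and interferon lists were -0.02, -0.04 and 0.09. Of 21 cytosolic ribosomal protein genes 0 passed, 0 had an unadjusted p under 0.05, and the median was -0.08. Of 17 BCL2 family genes, 18 cholesterol genes and 28 ATF4 and amino acid stress genes 0 passed, 1, 2 and 4 were higher and 0, 0 and 3 lower at an unadjusted p under 0.05. The cholesterol enzyme Cyp51 (0.87 ± 0.28) and the amino acid transporter subunit Slc3a2 (0.61 ± 0.15) passed with the replicate block (adjusted p = 0.0227 and 0.0127) and without RE replicate 3. Slc7a5, a partner of Slc3a2 in amino acid transport, went the other way (-0.53 ± 0.12, adjusted p = 0.0505, and 0.0346 with the block).

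In control cells carrying the empty vector, GM-CSF gave 1 call, Bcat1, a branched-chain aminotransferase, which is 0.00876% of units (with the replicate block 2 units, 0.0175%, were called; 303 units were higher and 310 lower at an unadjusted p under 0.05). Bcat1 measured 7.10, 6.67 and 6.65 in RE, against 7.25, 6.86 and 6.97 in RE+GM (0.22 ± 0.19, adjusted p = 0.574), against 7.19, 7.07 and 7.73 in Mig and 9.12, 8.93 and 8.68 in Mig+GM. The units called higher in RE+GM had a median change of 0.04 in Mig cells, where 142 of the 235 had the same sign. For the 44 called lower, the median change in Mig cells was -0.04, and 26 had the same sign. Of the 235 called higher, 53 were under background on all Mig and Mig+GM arrays. Matching shares over all units were not counted, so these counts are not read as agreement or absence. The comparison in Mig cells shares no array with that in RE cells.

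The difference between both effects of GM-CSF was tested as an interaction. It was larger in RE cells for 34 units (0.298%) and smaller for 0 by limma's test, while 537 units were larger and 537 smaller at an unadjusted p under 0.05; with the replicate block the counts were 65 (0.569%) and 12. Of the 34, 33 were also called in RE+GM against RE. Among these, Ppbp changed by -0.51 in Mig cells, from 8.10, 7.45 and 7.31 to 6.47, 7.06 and 7.78, and the interaction was 4.82 ± 0.66 (adjusted p = 0.0126). Grp, Car4, Cdkn2a and Cdkn2b had interactions of 4.29 ± 0.35, 3.53 ± 0.29, 2.38 ± 0.22 and 1.91 ± 0.18, with adjusted p of 0.000344, 0.000344, 0.00072 and 0.00072. Of the 22 named genes called in the interaction, 9 passed under all 21 alternatives run for it: Car4, Cav1, Cdkn2a, Cdkn2b, Cxcl5, Gja5, Grp, Sema7a and Tnfsf4.

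For most of the genes called in RE cells the interaction did not pass, so a difference from Mig cells was not shown for them in the fit without the block. Cxcl1 and Cxcl2 changed by -0.02 and 0.13 in Mig cells, where they were under background on all 6 arrays, and their interactions had adjusted p of 0.0524 and 0.053, which became 0.0299 and 0.0316 with the replicate block. Csta2, Cstdc4, Ccl17 and Plaur changed in Mig cells by 1.13, 1.27, 0.87 and 0.79, with adjusted p for the interaction of 0.385, 0.411, 0.137 and 0.342. Mig+GM replicate 1 was the highest Mig+GM array for all 4, at 9.80 for Cstdc4 against 6.97 and 7.58. Of the STAT5 targets, Cish changed by 0.78, Socs2 by 0.55, Id1 by 0.60 and Pim1 by 0.42 in Mig cells, with adjusted p for the interaction of 0.931, 0.698, 0.833 and 0.671.

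**Figure D5:**
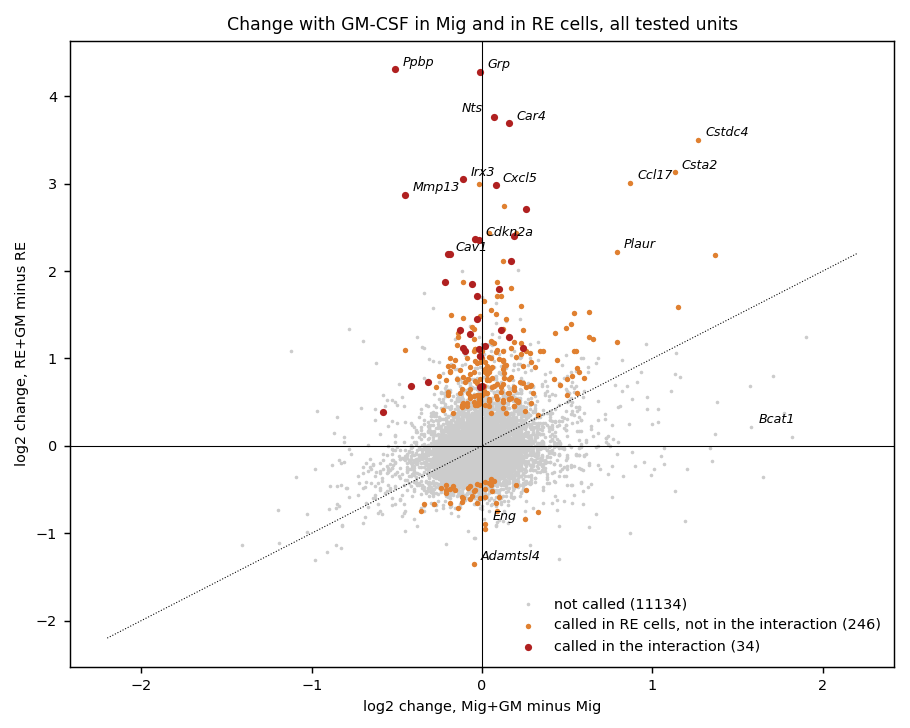
Log2 change with GM-CSF of each tested unit in Mig cells (horizontal) and RE cells (vertical), with 33 of the 34 interaction calls (red) also called in RE cells, other calls in RE cells in orange and the remaining units in grey; the dotted line marks equal change. Most coloured points lie near 0 on the horizontal axis, with Cstdc4, Csta2, Ccl17 and Plaur to the right of it.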

How the data were processed

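Illumina Mouse Ref-8 v2.0 BeadChips were hybridised with biotin-labelled RNA, per the labels' protocols. The deposited table, which the authors called non-normalized, holds 1 linear intensity for each of 25697 probes on 12 arrays, with no detection p. The labels do not name the software that summarised the beads. A second deposited table of normalized intensity served as an alternative. Of the probes, 23978 had 1 gene in the platform annotation, 0 had several and 1719 were unlisted.

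Here, intensities were background-corrected (normexp, offset 50), normalized between arrays by quantiles and converted to log2 with limma 3.58.1 in R 4.3.3. Without a detection p, a probe was kept if it exceeded its array's own background, estimated from the lower flank of the signal distribution, at p under 0.05 on at least 3 arrays, a rule set after the data had been seen. This left 15405 probes and, with the brightest probe of each gene, 11414 units. A model of 4 group means over 12 arrays gave the changes, reported with model standard errors (n = 3 arrays a group) and Benjamini-Hochberg adjusted p over all units. The procedure was tested on simulated data. The number of arrays limits the precision.

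A gene that no array of a group showed above background has only a bound there, printed as "at least". It sets the bright group's mean against the higher, on each dim array, of the probe's own signal and the lowest signal above background.

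The replicate numbers of the titles were taken to pair the samples. Deviations from the group means correlated at 0.16, 0.33 and 0.33 within RE pairs and 0.62, 0.62 and 0.70 within Mig pairs. The main fit did not use this pairing, so its standard errors and adjusted p are unpaired. Pairing entered only where the replicate block or same-numbered pairs are named.

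Named genes are the 12 largest called rises and falls, the 6 largest interaction calls, up to 4 called members of each list by p (or up to 2 uncalled), and a set of genes always shown. Genes outside this rule are said to be chosen after their values were seen. Members and lists were chosen with earlier results of these data known. Promoters come from RefSeq (GRCm38.p6).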

Additional observations from a re-analysis of the deposited data

Results flagged for a closer look

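These results were picked out because the effect of GM-CSF differed between RE and Mig cells by the interaction test of limma (adjusted p under 0.05). They are 22 named genes, each with a larger log2 change in RE cells. The differences on the log2 scale were 4.82 for Ppbp, 4.29 for Grp, 3.69 for Nts, 3.53 for Car4, 3.32 for Mmp13, 3.16 for Irx3 and 2.90 for Cxcl5. Next came Gja5 with 2.45, Sema7a with 2.41, Ltb4r1 with 2.40, Cav1 with 2.39, Cdkn2a with 2.38, Hao1 with 2.21 and Tnfsf4 with 2.10. Tnfrsf11b differed by 1.94, Cdkn2b by 1.91, Pdcd1lg2 by 1.76, Apoe by 1.47, Bcl6b by 1.35 and Gata6 by 1.23. Il31ra differed by 0.96 and Hbegf by 0.88.

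Il31ra, a receptor chain of interleukin-31, was the exception in kind: it was not called in RE+GM against RE (adjusted p = 0.128), where it was under background on all RE arrays and at least 1.2-fold higher in RE+GM, and it changed by -0.58 in Mig cells. For several of these genes arrays of the Mig or RE groups lay under background, among them the RE arrays of Il31ra. With every such array of any group put at that background, the difference fell to 4.17 for Grp, 2.23 for Cdkn2a, 2.79 for Cxcl5, 3.03 for Irx3 and 0.82 for Il31ra. It rose for some others, as to 3.63 for Car4 and 2.04 for Tnfrsf11b, and stayed at 3.69 for Nts. Groups of 3 arrays were not searched for outlying arrays.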

How the results depend on the processing

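With the replicate block the calls in RE+GM against RE went from 279 to 715, in the interaction from 34 to 77 and in Mig+GM against Mig from 1 to 2. A minimum fold of 1.2 left 79, 12 and 0 calls. Fitting the 6 RE and RE+GM arrays alone left 107, with the replicate block 226 (185 higher and 41 lower), and with it and without number 1, chosen after seeing the data, 744. Array weights, also chosen after seeing the data, gave 1151, 125 and 1, with weights of 0.349 for RE replicate 1 and 0.581 for RE replicate 3. Leaving out 1 array at a time gave 113 to 906, 9 to 179 and 0 to 1 calls; both upper values were those without RE replicate 3, and 9 was without Mig replicate 1. Median scaling gave 12 interaction calls and an offset of 16 gave 18. Median scaling, an offset of 16, the authors' normalized table and testing every probe left 0 calls in Mig cells, with 1004, 592, 600 and 757 at an unadjusted p under 0.05. Median scaling moved the median of all units from -0.04 to 0.05. The share of calls that were higher was 84.2%, against 97.5% under median scaling, 68.5% in the authors' table and 57.3% with the block. No named gene that was called changed direction under any alternative run. Changes of genes near background are compressed by the offset, and signal over background limits them. The cause of these differences was not tested.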

Other observations

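Further rises in RE+GM, all picked out after their values were seen, were of transcription factors and of proteins of the endoplasmic reticulum. Bcl6b, a zinc-finger repressor, measured 7.45, 7.13 and 7.90 in RE, against 8.73, 8.71 and 8.88 in RE+GM (1.28 ± 0.16, adjusted p = 0.00181 by limma). Mxi1, a MAX-binding repressor, rose by 1.19 ± 0.18, Gata6 by 1.12 ± 0.15, Batf, an AP-1 family factor, by 1.08 ± 0.24, Sox7 by 0.97 ± 0.15 and Epas1, a hypoxia-inducible factor, by 0.91 ± 0.13. Gata6 and Epas1 were above background on 2 of the 3 RE arrays. Other probes of Sox7 and Epas1 changed by 0.65 and 0.39 and were not called.

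Ch25h, the enzyme that makes 25-hydroxycholesterol, measured 7.69, 7.33 and 8.78 in RE, compared with 10.11, 10.67 and 10.34 in RE+GM (2.44 ± 0.29, adjusted p = 0.00181 by limma). Hao1, a hydroxyacid oxidase known from liver, rose by 2.40 ± 0.28. Smaller rises were those of Erp44 (0.57 ± 0.12), Creld2 (0.54 ± 0.12), Manf (0.54 ± 0.12), Derl2 (0.52 ± 0.10) and Sdf2 (0.41 ± 0.09), which act in protein folding or disposal in the endoplasmic reticulum. Of these, Creld2, Manf, Derl2 and Sdf2 were no longer called under median scaling. Another Derl2 probe changed by 0.50 and was not called, while other probes of Creld2 (0.68) and Sdf2 (0.48) were.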
